A study of Mus musculus with 24 samples.

Results

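The Dlx genes are the vertebrate relatives of the fly gene Distal-less, and they encode transcription factors with a homeodomain, a protein fold that binds short AT-rich DNA sequences. They lie in the genome in pairs that are transcribed towards each other, and each pair has noncoding transcripts running antisense to a coding member. In the developing forebrain, Dlx1, Dlx2, Dlx5 and Dlx6 act in the ventral progenitors that give rise to GABA neurons, and they remain active in adult interneurons, in olfactory bulb neurons and in the neuroblasts of the subventricular zone. Described here are these 4 coding genes with their antisense transcripts Dlx1as and Dlx6os1, the latter also known as Evf2, an RNA that acts with Dlx proteins at enhancers between Dlx5 and Dlx6. The members were chosen by name around Dlx1as, which was selected on its p-value, the lowest of all genes when mice infused with angiotensin II were compared with vehicle mice. The 6 names match 7 of the 54532 genes measured. A small RNA of 146 bases that shares the name Dlx6os1 was at 0 in all 24 mice, so 6 genes, all above 0 in all 24 mice, were among the 27286 genes tested.

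Brain hemispheres of male WT C57Bl6 mice aged 8 to 12 weeks were sequenced after poly-A selection, with 6 mice in each of 4 groups. Mice were infused for 2 weeks with saline (vehicle) or with angiotensin II at 0.7 mg/kg/d, a peptide hormone that raises blood pressure, from minipumps placed under the skin. In the groups named vehicle + AEC and angiotensin II + AEC, human amnion epithelial cells (AEC) from donated term placentae were injected into the tail vein after pump surgery, and the groups without AEC received saline instead. All 24 mice therefore had pump surgery, an infusion and an injection, and the AEC were cells of another species. The neuronal markers Snap25, Syt1, Nefl and Rbfox3 were above 0 in every mouse and summed to between 511 and 591 FPKM. In such bulk RNA, fewer cells of a type and less RNA per cell cannot be told apart. Values are FPKM, the fragments of a gene divided by the length of its exons and by the size of the library, so they can be compared between genes. Libraries held 16536449 to 25308700 fragments, and 6 of them stood apart in their total FPKM (338334 to 348597, against 277116 to 298301 in the other 18) and in their mitochondrial share (6.17% to 6.85% against 4.79% to 5.75%). These 6 libraries, called the high set below, comprised angiotensin II replicate 5, vehicle + AEC replicate 6, and replicates 5 and 6 of both the vehicle and the angiotensin II + AEC groups. No label names the high set as a batch.

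The first cluster lies on chromosome 2 (GRCm38). Dlx1 (ENSMUSG00000041911) is on the forward strand at chr2:71528113-71533981 and Dlx2 (ENSMUSG00000023391) faces it on the reverse strand at chr2:71543408-71546754. Dlx1as (ENSMUSG00000084946) runs on the reverse strand at chr2:71516454-71537891, across the whole of Dlx1. Its exons hold 1630 bases, of which 335 bases (20.6%), at chr2:71532784-71533118, are also exon of Dlx1, where they lie in the 3′ UTR and 0 bases are coding. The other 1295 bases of Dlx1as belong to no other gene. The second cluster lies on chromosome 6. Dlx6 (ENSMUSG00000029754) is on the forward strand at chr6:6863334-6868568, Dlx5 (ENSMUSG00000029755) faces it at chr6:6877805-6882085, and Dlx6os1 (ENSMUSG00000090063) covers Dlx6 on the reverse strand at chr6:6820189-6871592. In contrast to the first cluster, the exons of Dlx6os1 share 0 bases with those of Dlx6, although 491 of their 5173 bases (9.49%) are shared with small RNA genes, the second Dlx6os1 entry among them. The map of the clusters shows these positions as distances.

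**Figure D1:**
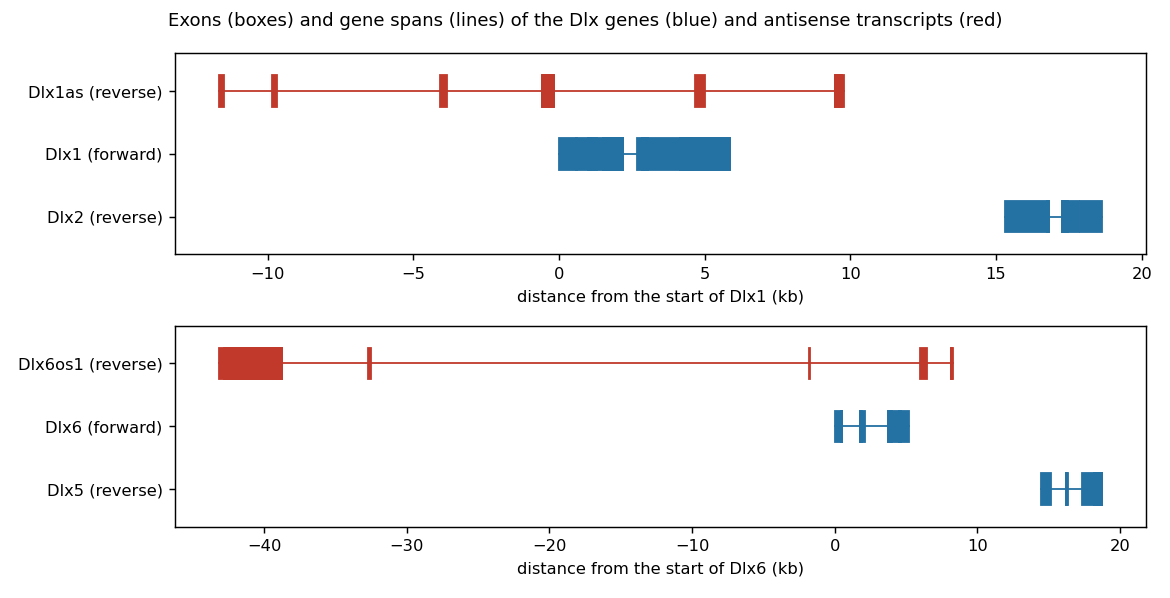
Exons (boxes) and spans (lines) of the coding Dlx genes (blue) and the antisense transcripts (red), with the strand of each, against the distance in kilobases from the start of Dlx1 (upper panel) or Dlx6 (lower panel). Dlx1as has an exon inside the last exon of Dlx1, whereas no exon of Dlx6os1 falls on an exon of Dlx6.

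Sequences are shown for the antisense transcripts, since these are the members whose levels varied most between libraries or groups. RefSeq promoter windows of 300 bases (250 before and 50 after the annotated start, GRCm38.p6) were given for 3 of the 6 genes, Dlx1, Dlx2 and Dlx6os1. The windows were searched for TAATTA, the core motif of many homeodomain proteins, which reads the same on both strands. The motif occurs in 1738 of 32851 promoter windows (5.29%), and 2 or more times in 143 of them (0.435%). The Dlx1 and Dlx2 windows hold 0 matches. Dlx6os1 has 2 annotated starts, and the window at its start beyond the end of Dlx6 holds 2 matches while the window before the start of Dlx6 holds 1. Both are printed 5′ to 3′ on the reverse strand with the matches in capitals. A match describes the letters of the window and is not evidence of binding.
Dlx6os1 start at chr6:6869484-6869783: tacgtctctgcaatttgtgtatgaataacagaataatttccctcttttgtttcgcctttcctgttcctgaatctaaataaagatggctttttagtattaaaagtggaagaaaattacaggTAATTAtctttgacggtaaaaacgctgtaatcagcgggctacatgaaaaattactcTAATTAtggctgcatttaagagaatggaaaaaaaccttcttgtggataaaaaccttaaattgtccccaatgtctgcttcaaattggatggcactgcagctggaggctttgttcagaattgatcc
Dlx6os1 start at chr6:6861634-6861933: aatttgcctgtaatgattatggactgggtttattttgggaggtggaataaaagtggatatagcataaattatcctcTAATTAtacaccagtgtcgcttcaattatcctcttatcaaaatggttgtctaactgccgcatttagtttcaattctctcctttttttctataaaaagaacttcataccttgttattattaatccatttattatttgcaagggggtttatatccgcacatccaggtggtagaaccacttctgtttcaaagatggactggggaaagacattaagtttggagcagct

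For Dlx1as, the part of the transcript that no other gene shares is what identifies it. GENCODE M21 lists 4 transcripts of Dlx1as, and 1 of them contains the exon shared with Dlx1. The first exon of Dlx1as-204 lies at chr2:71537580-71537810 on the reverse strand, between Dlx1 and Dlx2, and its 231 bases, all in lower case since they hold 0 matches to TAATTA, read 5′ to 3′ as follows.
Dlx1as first exon: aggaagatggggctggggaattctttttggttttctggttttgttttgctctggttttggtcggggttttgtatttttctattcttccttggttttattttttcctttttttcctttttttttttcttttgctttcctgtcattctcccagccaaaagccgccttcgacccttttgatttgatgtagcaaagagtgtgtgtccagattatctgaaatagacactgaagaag

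Dlx1 was the most abundant member, with 5.27 ± 0.422 FPKM (SD, n = 24 mice), above Dlx6 in 24 of 24 mice. Dlx6 (2.66 ± 0.377 FPKM) and Dlx5 (2.51 ± 0.484 FPKM) could not be ordered, since Dlx6 was the higher in 14 of 24 mice. Dlx5 exceeded Dlx2 (1.76 ± 0.294 FPKM) in 23 of 24 mice. Dlx2 and Dlx6os1 (1.56 ± 0.336 FPKM) also lay within each other's spread, with Dlx2 the higher in 15 of 24 mice. Dlx1as was the least abundant at 1.14 ± 0.305 FPKM, below Dlx6os1 in 21 of 24 mice. The antisense transcripts thus stood below the coding genes of their own clusters in mean level.

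Read numbers set the precision of these levels. Dlx1as rested on 15 to 59 fragments per mouse (median 33.5), which gives a counting error of 17.2%, and its coefficient of variation within groups ran from 14.6% to 23.2%. Dlx1, with 420 to 828 fragments, had a counting error of 4.28% and varied by 4.42% to 10.5% within groups. The remaining members had 60 to 226 fragments per mouse and counting errors of 8.20% to 10.3%. If the fragments of Dlx1 were spread evenly over its exons, 34.4 per mouse would fall on the 335 bases shared with Dlx1as, beside the 36.0 fragments per mouse counted on Dlx1as. Since the use of strand is not given in the sources used here, the part of such shared fragments in the values of Dlx1as was not tested.

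The comparison of angiotensin II with vehicle asks how the hormone alone changed the brain, and it is the comparison by which the members were chosen, so its values are a description. In vehicle mice Dlx1as was 0.924, 1.01, 1.07, 0.836, 0.536 and 0.722 FPKM (replicates 1 to 6). In mice infused with angiotensin II it was 1.33, 1.63, 1.62, 1.77, 1.102 and 1.26 FPKM. The groups did not overlap, and the lowest infused mouse (replicate 5) was the library of that group in the high set, as were the lowest vehicle mice. Group means were 0.849 ± 0.197 and 1.45 ± 0.260 FPKM (SD, n = 6 each), and the log2 fold change was 0.72 (SE 0.165, on the log2(FPKM + 0.1) scale as for all fold changes here). With the high set as a term in the fit it was 0.65, and among the other 18 libraries alone it was 0.61. A pseudocount of 1, large for a gene at this level, gave 0.41. Over all 27286 genes, the groups did not overlap for 17 (0.0623%) and the unadjusted limma p-value was under 0.05 for 604 (2.21%), while 0 had an adjusted p-value under 0.05 (lowest 0.994). Dlx1as is 1 of the 17 and 1 of the 604 by the way it was chosen, so its place among them is no result.

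In these mice, an even spread would place 34.9 fragments of Dlx1 per vehicle mouse and 33.0 per infused mouse on the shared bases, while Dlx1as had 27.3 and 46.7 fragments per mouse.

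The coding gene Dlx1, whose product acts in the maturation and survival of interneurons, was 4.63 to 6.02 FPKM (median 5.17) with vehicle and 4.66 to 5.44 FPKM (median 5.04) with angiotensin II. All infused mice lay within the range of the vehicle mice, and the log2 fold change was -0.06. Dlx2, its partner in ventral forebrain progenitors, had a log2 fold change of -0.02, with 1.08 to 2.09 FPKM in vehicle mice and 1.26 to 2.20 FPKM in infused mice. Dlx5 and Dlx6, which act downstream of Dlx1 and Dlx2, had log2 fold changes of -0.11 and -0.04. Dlx6os1 had a log2 fold change of 0.08, with 0.889 to 1.92 FPKM in vehicle mice and 0.903 to 1.76 FPKM in infused mice. For each of these 5 genes the groups overlapped.

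**Figure D2:**
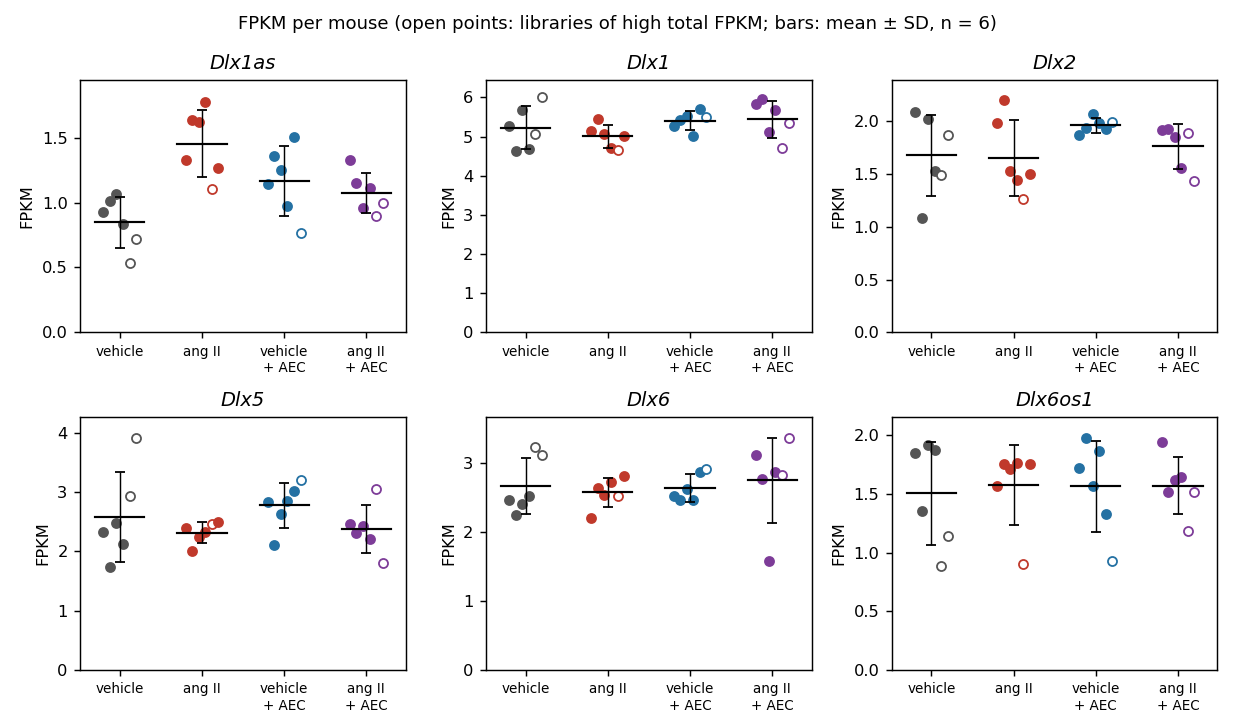
FPKM of the 6 genes in each mouse by group (ang II, angiotensin II; AEC, amnion epithelial cells), with the mean ± SD of 6 mice as bars and the libraries of the high set as open points. Dlx1as spans 0.536 to 1.07 FPKM in vehicle mice and 1.102 to 1.77 FPKM in mice infused with angiotensin II, and the open points of Dlx6os1 are the lowest in every group.

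Among mice infused with vehicle, those that received AEC had 1.15, 1.36, 1.25, 0.976, 1.51 and 0.767 FPKM of Dlx1as (replicates 1 to 6), and 4 of these 6 mice lay above all vehicle mice. The log2 fold change of vehicle + AEC against vehicle was 0.42 (95% interval 0.07 to 0.76). Among mice infused with angiotensin II, those that received AEC had 1.33, 1.15, 0.960, 1.11, 0.899 and 0.995 FPKM, and 3 of these 6 mice lay below every mouse without AEC. The log2 fold change of angiotensin II + AEC against angiotensin II was -0.40 (95% interval -0.74 to -0.06). Both comparisons share their mice without AEC with the comparison that chose Dlx1as, so neither was tested on the members. The 95% intervals given for them describe precision and are no test against 0. For the other 5 members the log2 fold changes ran from -0.0011 (Dlx6) to 0.24 (Dlx2) in the former comparison and from 0.01 (Dlx6os1) to 0.12 (Dlx1) in the latter. Among the 18 libraries outside the high set, Dlx5 had 0.30 (95% interval 0.08 to 0.53) in the former, against 0.13 over all mice, and Dlx1 had 0.15 (95% interval 0.02 to 0.29) in the latter.

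The comparison of angiotensin II + AEC with vehicle + AEC asks what the hormone changed in mice that had received AEC. It uses 12 mice that played no part in the choice of the members, and it was therefore tested. Dlx1as was 1.07 ± 0.157 FPKM with angiotensin II + AEC and 1.17 ± 0.266 FPKM with vehicle + AEC (SD, n = 6 each), and all mice with angiotensin II lay within the range of those without. The log2 fold change was -0.09 (95% interval -0.43 to 0.25), and the two-sided exact permutation test gave p = 0.558. This fold change was -0.19 without vehicle + AEC replicate 6, and -0.02 with the high set as a term. Whether the effects in mice with and without AEC differ was not tested, since the latter chose the gene.

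Dlx1 was 5.44 ± 0.479 FPKM with angiotensin II + AEC and 5.41 ± 0.239 FPKM with vehicle + AEC, a log2 fold change of 0.01 (95% interval -0.14 to 0.15). Dlx1 therefore had the narrowest interval of the 6 genes. Dlx2 was 1.92, 1.92, 1.85, 1.56, 1.89 and 1.43 FPKM with angiotensin II + AEC and 1.87, 1.94, 2.07, 1.98, 1.92 and 1.99 FPKM with vehicle + AEC (replicates 1 to 6). The vehicle + AEC mice lay unusually close together, with a coefficient of variation of 3.50% that is below the counting error of 9.71%, and 3 of the mice with angiotensin II lay below all of them. The log2 fold change of Dlx2 was -0.16 (95% interval -0.45 to 0.14). The exact permutation test, which uses these 12 mice alone, gave p = 0.0216, whereas limma, which shares the spread of all 24 mice, gave an unadjusted p = 0.281 and an adjusted p of 1. This permutation p is the lowest among the 6 members and is not adjusted for the 6 tests. The unadjusted call for Dlx2 therefore depends on the test.

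In the second cluster, Dlx5 was 2.38 ± 0.405 FPKM with angiotensin II + AEC and 2.77 ± 0.380 FPKM with vehicle + AEC. The log2 fold change of Dlx5 was -0.22 (95% interval -0.52 to 0.08), and the exact permutation test gave p = 0.115. With the high set as a term the fold change was -0.26 (95% interval -0.53 to 0.0035). Dlx6 was 2.75 ± 0.617 FPKM with angiotensin II + AEC and 2.65 ± 0.203 FPKM with vehicle + AEC, and its log2 fold change of 0.02 (95% interval -0.25 to 0.30) changed sign, to -0.02, with the high set as a term. The wide spread of Dlx6 with angiotensin II + AEC came with a mouse at 1.58 FPKM (replicate 3) below 5 mice at 2.77 to 3.37 FPKM. Dlx6os1 was 1.57 ± 0.244 and 1.56 ± 0.387 FPKM, a log2 fold change of 0.03 (95% interval -0.38 to 0.44). In limma, 0 of the 6 members had an unadjusted p-value under 0.05, beside 725 of 27286 genes (2.66%), and 0 members and 0 genes (0%) had an adjusted p-value under 0.05.

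**Figure D3:**
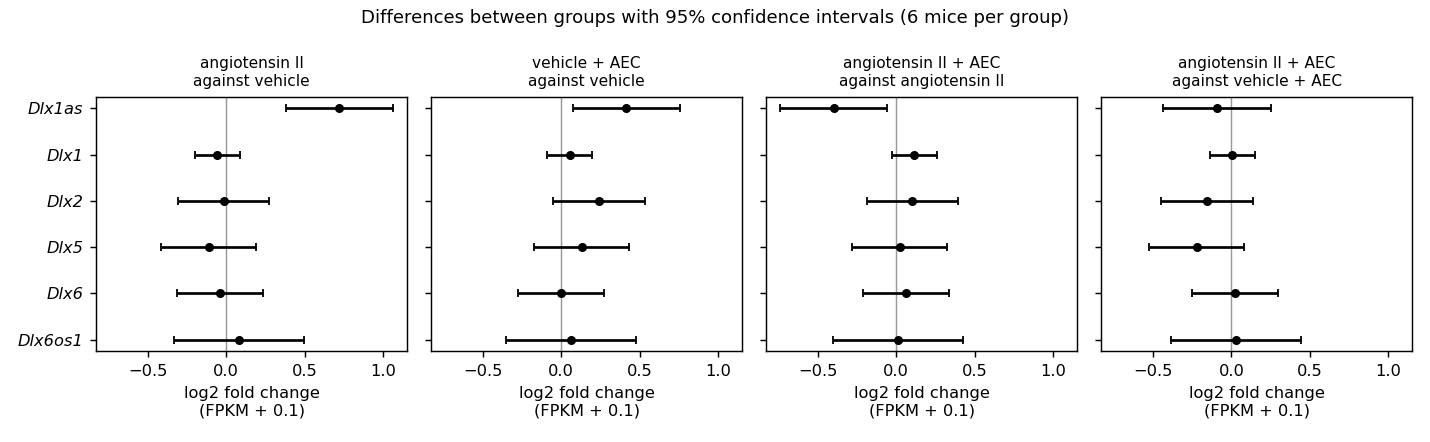
Log2 fold change of FPKM + 0.1 (horizontal axis) of the 6 genes in 4 comparisons of 6 against 6 mice, with 95% confidence intervals from limma as bars. Dlx1as was chosen by angiotensin II against vehicle, and the next 2 comparisons share mice with it. Its intervals in these are a description and no test, as in angiotensin II + AEC against angiotensin II (-0.74 to -0.06). The interval of Dlx1as includes 0 in angiotensin II + AEC against vehicle + AEC (-0.43 to 0.25).

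Antisense transcripts can be read against the coding gene that they cover. Dlx1as amounted to 16.4% ± 4.28 of Dlx1 in vehicle mice (SD, n = 6) and to 29.1% ± 5.29 in mice infused with angiotensin II, a description for the reason above. It amounted to 21.5% ± 4.44 with vehicle + AEC and to 19.7% ± 1.54 with angiotensin II + AEC. The log2 ratio differed by -0.10 between the latter groups (exact permutation test, p = 0.509). Leaving out vehicle + AEC replicate 6, a library of the high set with the lowest ratio of its group (14.0%), the difference was -0.20 (exact permutation test, p = 0.0325). Without this library, the high set remained in angiotensin II + AEC only. The other 16 alternatives for this difference did not pass the threshold, the libraries outside the high set alone among them. Dlx6os1 amounted to 59.0% ± 22.0 of Dlx6 with vehicle, 61.3% ± 12.8 with angiotensin II, 60.3% ± 18.4 with vehicle + AEC and 60.7% ± 21.9 with angiotensin II + AEC. Its log2 ratio differed by 0.01 between the groups with AEC (exact permutation test, p = 0.983).

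**Figure D4:**
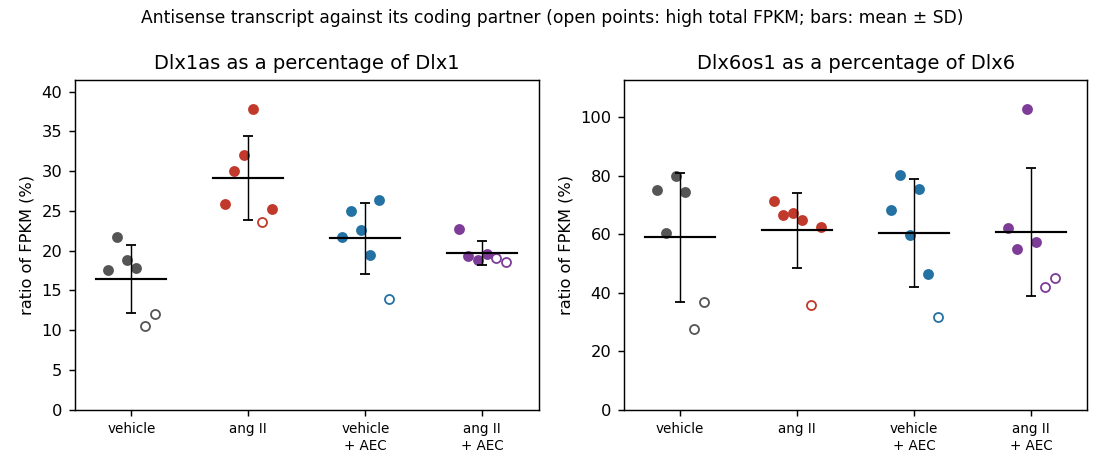
FPKM of Dlx1as as a percentage of Dlx1 (left) and of Dlx6os1 as a percentage of Dlx6 (right) in each mouse by group, with the mean ± SD of 6 mice as bars and the high set as open points. Dlx1as reaches 23.6% to 37.8% of Dlx1 with angiotensin II and 10.6% to 21.8% with vehicle, and the open points of Dlx6os1 to Dlx6 (27.5% to 44.9%) are below all filled points.

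The clearest difference among the Dlx genes was between sets of libraries. Dlx6os1 was 0.889 and 1.14 FPKM in the high-set vehicle mice, 0.903 with angiotensin II, 0.926 with vehicle + AEC, and 1.19 and 1.51 with angiotensin II + AEC. Within each of the 4 groups, every mouse of the high set lay below every other mouse. Dlx6os1 averaged 1.09 ± 0.243 FPKM in the 6 libraries of the high set and 1.71 ± 0.188 FPKM in the other 18, and the log2 fold change with the groups in the fit was -0.63 (SE 0.0955, limma adjusted p = 4.36e-06). Dlx1as was also lower in the high set, at 0.837 ± 0.204 against 1.24 ± 0.267 FPKM (log2 fold change -0.44, SE 0.0961, limma adjusted p = 0.000385). The coding genes of the second cluster went the other way. Dlx5 was 2.89 ± 0.712 against 2.39 ± 0.316 FPKM (log2 fold change 0.26, limma adjusted p = 0.0404) and Dlx6 was 2.998 ± 0.307 against 2.55 ± 0.333 FPKM (log2 fold change 0.23, limma adjusted p = 0.0419). Dlx1 (log2 fold change -0.03, 95% interval -0.14 to 0.08) and Dlx2 (-0.10, 95% interval -0.34 to 0.13) did not pass the test.

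These 4 of 6 members stand against a background of 14536 genes (53.3%) with an adjusted p-value under 0.05 between the sets, 22.3% higher and 31% lower in the high set, so the count is near that of all genes. Among the 1800 antisense genes tested, 23.2% were lower and 6.72% higher in the high set, and among 17541 protein-coding genes 37.4% were lower and 29.4% higher. Dlx6os1 amounted to 36.5% ± 6.42 of Dlx6 in the high set and to 68.3% ± 12.4 in the other libraries, and Dlx1as to 16.3% ± 4.98 and 23.5% ± 5.45 of Dlx1. All libraries of the high set carry the replicate number 5 or 6. With the replicate number as a block beside the set, the adjusted p was 0.0270 for Dlx6os1, 0.0676 for Dlx1as, 0.797 for Dlx5 and 0.869 for Dlx6. With limma voom on the recovered reads, it was 0.0501 for Dlx5 and 0.0955 for Dlx6. What the high set is was not tested.

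**Figure D5:**
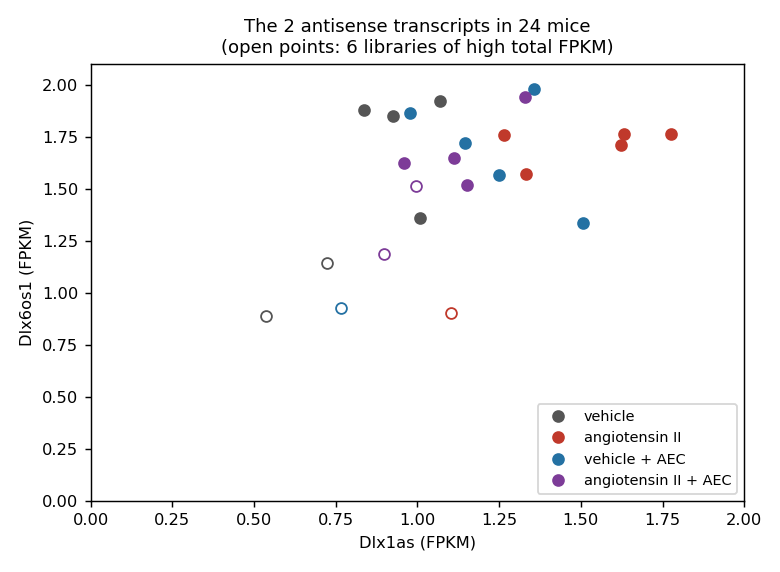
FPKM of Dlx6os1 (vertical axis) against FPKM of Dlx1as (horizontal axis) in 24 mice coloured by group, with the 6 libraries of the high set as open points. The open points lie at the lower left, at 0.536 to 1.102 FPKM of Dlx1as and 0.889 to 1.51 FPKM of Dlx6os1.

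The 15 pairs of members were compared across the 24 mice after the means of group and library set were removed. With the group alone removed, Dlx1as and Dlx6os1 had r = 0.70, with the set removed as well r was 0.22 (permutation test, p = 0.436), and in the 18 other libraries alone r was -0.12. Pearson's r was positive for 12 of the 15 pairs, with a median of 0.22, and 0 pairs had a permutation p under 0.05 after Benjamini-Hochberg adjustment over the 15. The highest was between the neighbours Dlx1 and Dlx2, with r = 0.56 (permutation p = 0.0260, adjusted p = 0.227) and Spearman's rho = 0.51 (permutation p = 0.0316, adjusted p = 0.473). Without the 2 mice farthest from the median of Dlx1 it was r = 0.66, and in the 18 other libraries alone r = 0.67. Dlx2 and Dlx5, which lie on different chromosomes, had r = 0.50 (permutation p = 0.0422, adjusted p = 0.227) and rho = 0.35 (permutation p = 0.130, adjusted p = 0.488). For this pair r was 0.49 without the 2 farthest mice and 0.37 in the 18 other libraries alone. Dlx5 and Dlx6, neighbours like Dlx1 and Dlx2, had r = 0.04. The antisense transcripts had r = 0.27 with Dlx1 for Dlx1as and r = 0.21 with Dlx6 for Dlx6os1.

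Marker genes of brain regions and of cell types were followed in 8 lists, giving 48 relations with the 6 members. Olfactory bulb, striatum, cortex, hypothalamus and cerebellum were among the lists. None had an adjusted permutation p under 0.05, and 2 of the 48 had an unadjusted p under 0.05. Dlx6os1 went against the summed markers of interneuron classes, with r = -0.54 (permutation p = 0.00365, adjusted p = 0.175). Spearman's rho was -0.60 (permutation p = 0.00143, adjusted p = 0.0686), and r was -0.44 without the 2 farthest mice. Each list was read as its summed FPKM, so abundant genes weigh most. For interneuron classes these were Sst (266 FPKM over all mice), Pvalb (201) and Cck (201), beside Vip at 5.70. For neuroblasts and dividing cells it was Tubb3 (245 FPKM), beside Cd24a at 5.82. For olfactory bulb it was Gng13 (42.3 FPKM), beside Nmb at 3.63. The sums are therefore no measure of how much of a region a sample held. Dlx5 went with the markers of striatal projection neurons, with r = 0.45 (permutation p = 0.0443, adjusted p = 0.450) and rho = 0.44 (permutation p = 0.0339, adjusted p = 0.544), and r was 0.24 in the 18 other libraries. The summed level of hypothalamic markers was 59.9 to 424 FPKM with angiotensin II, where a single mouse was high, and 45.7 to 108 FPKM in the other groups. The wide range came with Pomc (mean 59.5 and SD 139 FPKM with angiotensin II, mean 3.18 FPKM with vehicle). Group means of the other listed genes were close, as for Avp (34.2 and 33.5 FPKM) and Oxt (21.9 and 22.3 FPKM). The part of this sum in the values of Dlx1as was not tested. The correlation of the sum with Dlx1as was r = 0.27 (permutation p = 0.326).

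By residual level over the 24 mice and 15865 genes with a mean of at least 0.5 FPKM, the genes most like each member were named as a description. For Dlx1as they were Ctnnd1 (r = 0.74), which encodes the junction protein p120-catenin, Ccdc30 (0.72) and Tor1b (0.71). For Dlx1 they were Wdr34 (0.76), 6330403K07Rik (0.75) and Arvcf (0.74), and for Dlx2 the neuronal splicing factor Celf3 (0.76), Pdgfc (0.75) and Sidt1 (0.70). Dlx5 was most like Gm26935 (0.83), Cc2d1a (0.77) and Itpkc (0.74), and Dlx6 most like Adm (0.82), the gene of the vasodilator peptide adrenomedullin, and Gm45353 (0.73). Dlx6os1 was most like Trim66 (0.72), Gm12264 (0.70) and Gm44090 (0.70). In the 18 other libraries alone, r of the named genes ran from 0.52 (Gm12264) to 0.85 (Adm). All were picked as the highest r among the 15865 genes and were not tested. No gene was named for more than 1 member, and none of the 13 genes near the clusters, described below, is among them.

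Other genes of the GABA neuron programme were followed in 5 lists of 59 genes in all, of which 0 passed an unadjusted p of 0.05 in angiotensin II + AEC against vehicle + AEC in limma, beside the 2.66% of all genes. Of the other Dlx family genes, Dlx3 (0.0812 FPKM over all mice) and Dlx4 (0.190 FPKM) were much lower than the 6 members, with log2 fold changes of 0.32 and -0.31. Among 30 transcription factors of the ventral forebrain and of GABA neurons the median log2 fold change was -0.06, with the lowest, -0.21, for Sox6, a factor of interneuron development. Among 5 genes of GABA synthesis and transport the median was -0.09, from -0.16 for Gad2, which makes GABA, to 0.02 for Slc32a1, which loads it into vesicles. Among 12 genes of interneuron classes it was 0.05, from -0.10 for the serotonin receptor gene Htr3a to 0.21 for neuropeptide Y (Npy). Among 9 genes of neuroblasts and dividing cells it was -0.03, from -0.17 for Sox4 to 0.39 for Nes. The median of all genes was -0.01.

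Markers of regions and of other cell types were followed in 10 further lists. Median log2 fold changes in angiotensin II + AEC against vehicle + AEC ran from -0.13 for cerebellum and -0.08 for olfactory bulb, through -0.03 for cortical excitatory neurons, -0.0019 for brain neurons, 0.01 for striatal projection neurons, 0.03 for astrocytes, 0.06 for microglia and 0.06 for hypothalamus, to 0.11 for oligodendrocytes and 0.19 for endothelium. In limma, 2 genes of these 10 lists had an unadjusted p-value under 0.05, beside 725 of all 27286 genes (2.66%). They were the striatal receptor gene Gpr6 (log2 fold change -0.18) and the endothelial adhesion gene Pecam1 (0.18), each with an adjusted p of 1. Along the chromosome, 13 genes near the clusters or inside them were measured. In limma, 0 of these 13 had an unadjusted p-value under 0.05 in any of the 4 comparisons, beside 2.21% to 2.66% of all genes. Metap1d, which overlaps the span of Dlx1as without sharing exon bases, had a log2 fold change of -0.02 in angiotensin II + AEC against vehicle + AEC.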

How the data were processed

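Brain RNA of 24 male mice (6 per group) was measured. The authors deposited FPKM per gene and mouse, mapped to GRCm38 (mm10), with DESeq 1.10.1 among the submitters' tools, and the aligner, counter and use of strand are not given in the sources used here. Whole reads were recovered from the FPKM steps. Of the values up to 100 reads, 100% lay within 0.05 of a whole number, and larger values were rounded without this check.

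Groups follow the sample labels. In R 4.3.3 with limma 3.58.1, log2(FPKM + 0.1) was fitted with 4 groups in one fit and a trend in eBayes, with Benjamini-Hochberg adjustment over 27286 genes above 0 in at least 6 of 24 mice, and the fit was tested on simulated data. Single values were tested with two-sided exact permutation tests and correlations with 100000 permutations (Python 3.11.15, scipy 1.17.1). The members and lists were chosen with earlier results of these data known. Named genes are the 6 members, list genes with an unadjusted p under 0.05 or the highest or lowest fold change, the 3 nearest neighbours on each side of a cluster, and the 3 most alike genes, of which some single results are not reported here. The high set is total FPKM over 320000. Sequences and exons come from RefSeq and GENCODE M21. Alternatives were other pseudocounts, filters, scalings, samples and weights, the library set, the replicate block and voom.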

Additional observations from a re-analysis of the deposited data

Results flagged for a closer look

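A lone low mouse was found for 2 of the 24 combinations of member and group, by the gap of the lowest mouse to the next divided by the range of the group, where chance alone marks about 1 in 20 groups. Dlx6 was 1.58 FPKM in angiotensin II + AEC replicate 3, with the gap taking 0.664 of the range. Dlx6os1 was 0.903 FPKM in angiotensin II replicate 5, with the gap taking 0.778 of the range, and this library belongs to the high set, in which Dlx6os1 was low in every group.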

How the results depend on the processing

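Of 682 values recomputed under alternatives, 645 kept their direction and side of the threshold or moved by less than the spread between mice. In angiotensin II + AEC against vehicle + AEC, 0 members had an unadjusted limma p under 0.05 in every alternative fit run. These fits included leaving out each of the 12 mice. The exact permutation test gave an unadjusted p = 0.0216 for Dlx2. The number of pathway genes rose from 0 to 1 with the library set as a term (Pou3f4), with the 18 libraries alone (Dlx4, lower), with the replicate block (Npy) and with array weights (Dlx4, lower), to 2 with set and block together (chosen after seeing the data), and lay between 0 and 2 when a mouse was left out, with 2 without vehicle + AEC replicate 6 (Npy among them), 2 without angiotensin II + AEC replicate 1 (Nes among them) and 1 without angiotensin II + AEC replicate 5 (Dlx4). Pou3f4 was named after its values were seen. The log2 ratio of Dlx1as to Dlx1 lay between -0.20 and -0.038 without single mice, and the lowest value, without vehicle + AEC replicate 6, passed the threshold. The log2 ratio of Dlx6os1 to Dlx6, near 0, was -0.012 with a pseudocount of 1 and lay between -0.15 and 0.10 without single mice.

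Dlx1as was between -0.19 and -0.017 without single mice. Fold changes close to 0 changed sign. Dlx1 was -0.00044 with limma voom and between -0.021 and 0.046 without single mice. Dlx6os1 was -0.0014 in the 18 libraries, -0.015 with array weights and between -0.10 and 0.10 without single mice. Dlx6 was -0.015 with the set as a term, -0.045 in the 18 libraries, -0.043 with array weights and between -0.039 and 0.17 without single mice. Between library sets, Dlx1 was 0.036 with rescaled FPKM. Median r between members was 0.13 to 0.24, and 0 relations with marker lists passed under any setting. The cause of these changes was not tested.

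All genes with an unadjusted p under 0.05 in angiotensin II + AEC against vehicle + AEC numbered 725, and 1093 with the set as a term, 1164 in the 18 libraries, 1096 with the replicate block, 1158 with both, 1303 with array weights and 136 of 13649 at a mean FPKM of at least 1. Between library sets, genes with an adjusted p under 0.05 numbered 14536, and 9014 with the replicate block. With group and set removed, the correlation of equal replicate numbers between angiotensin II + AEC and vehicle + AEC was -0.24 to 0.08. With the group alone removed it was -0.011 (replicate 5) to 0.73 (replicate 6, in the high set in both groups). Other pairs of groups were not compared, so whether replicate numbers pair the mice is not settled. Under the block the log2 ratios differed by -0.10 (exact permutation test on the 6 differences, p = 0.531) for Dlx1as to Dlx1 and by 0.01 (exact permutation test, p = 1) for Dlx6os1 to Dlx6. The planned edgeR test was not run, since the values are FPKM. The depth of 15 to 59 fragments limits Dlx1as.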
